A study of Mus musculus with 12 samples.

Results

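The 9 genes described here encode proteins that build or anchor tight junctions, the belt-like seals between neighbouring epithelial cells: Ocln, Marveld2, Cldn3, Cldn4, Cldn6, Cldn7, F11r, Tjp1 and Tjp3. They were chosen by name, and the members are the 14 probe sets, of 45101 on the array, whose only gene symbol in the platform annotation is one of these 9. Of the 14, 12 passed the signal filter, a mean log2 signal no lower than the median of the probe-set means (5.97, a signal of 62.6), and were tested. The other 2, a Cldn3 and an F11r probe set, lay below it. The probe sets were read in mouse epiblast stem cells (EpiSCs), pluripotent cells of the kind that makes up the post-implantation epiblast, on 12 Affymetrix Mouse 430 2.0 arrays. The 4 groups were haploid EpiSC-2 and haploid EpiSC-1 of strain 129Sv, and diploid EpiSC-2 and diploid EpiSC-1 of strain B6D2F1, with 3 biological replicates each. The numbers 1 and 2 were taken to mark separate lines of each ploidy. In all 4 groups the labels give N2B27 medium with bFGF and Activin A, Trizol extraction and biotin-labelled cRNA. Strain and ploidy divide the arrays in the same way, so they cannot be told apart, and each ploidy rests on 2 lines. Whether replicates came from separate cultures is not stated, so the p values measure the spread between these samples, which may be technical.

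Tight junctions are built from strands of claudins, membrane-spanning proteins that set which ions pass between cells. Occludin (Ocln) and tricellulin (Marveld2) belong to a separate family that shares the MARVEL domain, and tricellulin seals the points where the corners of cells meet. Junctional adhesion molecule A (F11r) is an immunoglobulin-like protein of the same contacts, and the zonula occludens proteins encoded by Tjp1 and Tjp3 tie the membrane proteins to actin from the inside. The epiblast after implantation is itself a polarised epithelium, and repressors of the Snail and Zeb families are known to bind the E-box CAGGTG in promoters of epithelial genes.

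Promoters of the membrane protein genes among the members that fell in haploid cells are printed here, because they were called in the same direction, beside that of the scaffold gene Tjp1, which did not pass the test. Tjp1 is the only member without this E-box in its window. Cldn3, Cldn4 and F11r did not pass the test either, but their windows hold the E-box and are not printed. Every match to CAGGTG or its reverse complement CACCTG is in capitals, the annotated transcription start is counted as base 1, and the sequences are those of RefSeq on GRCm38.p6 (mm10), 5′ to 3′ on the strand of the gene. The Ocln window lies at chr13:100552669-100552968 on the minus strand and holds a match that begins at base 8 after the start. The Marveld2 window, at chr13:100616922-100617221 on the minus strand, holds a match that begins at base 44.
Ocln: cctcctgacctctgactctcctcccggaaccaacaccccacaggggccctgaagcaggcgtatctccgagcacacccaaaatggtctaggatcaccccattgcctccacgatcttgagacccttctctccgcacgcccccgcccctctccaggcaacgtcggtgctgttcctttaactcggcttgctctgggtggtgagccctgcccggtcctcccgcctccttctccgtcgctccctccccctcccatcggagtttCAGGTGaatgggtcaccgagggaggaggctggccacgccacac
Marveld2: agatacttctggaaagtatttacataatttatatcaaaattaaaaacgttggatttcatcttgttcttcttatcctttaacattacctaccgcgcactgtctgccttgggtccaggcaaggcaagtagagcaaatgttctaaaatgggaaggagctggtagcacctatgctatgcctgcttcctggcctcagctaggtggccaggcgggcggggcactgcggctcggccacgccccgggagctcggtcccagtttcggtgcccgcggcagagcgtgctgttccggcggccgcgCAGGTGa
The Cldn6 window lies at chr17:23679115-23679414 on the plus strand, with matches that begin at -93 and 41. The window at the second annotated start of Cldn7, at chr11:69965171-69965470 on the plus strand, has matches that begin at -97 and -57, while that at its first start holds none. The Tjp1 window lies at chr7:65371195-65371494 on the minus strand.
Cldn6: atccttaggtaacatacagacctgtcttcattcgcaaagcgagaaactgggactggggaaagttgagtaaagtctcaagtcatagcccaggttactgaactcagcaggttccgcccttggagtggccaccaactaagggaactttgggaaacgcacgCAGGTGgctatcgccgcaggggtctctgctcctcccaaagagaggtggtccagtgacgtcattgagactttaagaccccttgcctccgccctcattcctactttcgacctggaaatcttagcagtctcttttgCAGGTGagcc
Cldn7: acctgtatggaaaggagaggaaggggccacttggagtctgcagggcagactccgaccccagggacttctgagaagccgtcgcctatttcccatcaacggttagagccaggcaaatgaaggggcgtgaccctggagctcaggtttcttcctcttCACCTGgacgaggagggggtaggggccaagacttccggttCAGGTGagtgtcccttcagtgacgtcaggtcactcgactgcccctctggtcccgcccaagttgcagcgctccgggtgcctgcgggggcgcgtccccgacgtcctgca
Tjp1: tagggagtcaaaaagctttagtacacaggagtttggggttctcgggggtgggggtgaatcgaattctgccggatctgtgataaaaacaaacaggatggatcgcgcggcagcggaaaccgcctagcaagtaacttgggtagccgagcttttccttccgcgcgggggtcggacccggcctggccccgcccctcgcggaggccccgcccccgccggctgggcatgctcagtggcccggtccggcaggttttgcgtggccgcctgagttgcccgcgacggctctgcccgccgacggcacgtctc
All 9 genes had windows, 13 in total, and 8 of the 9 genes had at least 1 match, Tjp1 being the exception. Matches were found in 11 of the 13 member windows, and in 20.2% of all 32851 windows and 22.6% of all 27025 genes that RefSeq gave. The windows of Ocln overlap each other, as do those of Marveld2, and share matches. Matches were present in Tjp3, which fell in haploid cells, and also in Cldn3, Cldn4 and F11r, which did not pass the test between the ploidies. The grainyhead motif AACCNGTT (AACNGGTT on the other strand) was in 2.09% of all windows and in 0 of the 13. A match is a string of letters and no evidence of binding, and these letters were not found in the remaining windows.

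Array medians lay between 63.6 and 76.5 in MAS5 signal, the linear intensity that the submitters deposited, and the log2 signals of replicates had correlations of 0.987 to 0.990. The labelled cell type was checked against 6 epiblast stem cell markers, all of them with mean signals above the filter in every line. Haploid EpiSC-1 stood apart in Otx2 and Fgf5, with mean signals of 74.0 and 86.9. The same means were 2290 and 2424 in haploid EpiSC-2, 2133 and 2332 in diploid EpiSC-2, and 3962 and 3621 in diploid EpiSC-1. The log2 differences, haploid minus diploid, were -2.82 for Otx2, -2.69 for Fgf5, -1.27 for Dnmt3b, -0.77 for Pou5f1 and -0.66 for Nanog. Sox2 went the other way, at 1.85. Its means were 3383 in haploid EpiSC-2, 4537 in haploid EpiSC-1, 1175.5 in diploid EpiSC-2 and 1005 in diploid EpiSC-1. Fgf5 and Nanog did not pass the test between the ploidies, and haploid and diploid arrays overlapped on Otx2, Fgf5 and Nanog. Means of Nanog were 2977 in haploid EpiSC-2, 2112 in haploid EpiSC-1, 2662 in diploid EpiSC-2 and 5883 in diploid EpiSC-1. Fibroblast markers parted the ploidies in their sum, in which Col1a2, Col3a1 and Acta2 had the highest haploid means. The summed signal of 11 such genes was 28725 to 29296 in haploid EpiSC-2 and 25633 to 26314 in haploid EpiSC-1, against 2099 to 2146 in diploid EpiSC-2 and 1221 to 1311 in diploid EpiSC-1. In diploid EpiSC-1 Col1a1, Col3a1, Pdgfrb, Lum, Postn and Twist2 were below the filter, and in diploid EpiSC-2 Dcn, Postn and Twist2. Thy1 went the other way, at a log2 difference, haploid minus diploid, of -0.25. Thy1 and Dcn did not pass the test between the ploidies described below, and Lum and Twist2 were not tested. The 7 trophoblast markers summed to 1986 to 2647 over the haploid arrays and 888 to 1049.9 over the diploid arrays. Elf5 was below the filter in every line, Cdx2 and Gata3 in both diploid lines, and Tfap2c in diploid EpiSC-1. Their log2 differences, haploid minus diploid, were 5.77 for Cdx2 and 2.35 for Tfap2c, against -0.02 for Eomes and -0.43 for Krt7. Elf5, Gata3 and Ascl2 were not tested. The 9 visceral endoderm markers summed to 1947 to 2169 in haploid EpiSC-2, 488 to 629 in haploid EpiSC-1, 729 to 765 in diploid EpiSC-2 and 1192 to 1203 in diploid EpiSC-1, with Ttr, Apoa1, Cubn and Hnf4a below the filter throughout. The 3'/5' signal ratio of the actin controls was 1.345 to 1.42 on haploid and 1.46 to 1.68 on diploid arrays, while that of Gapdh overlapped, at 0.836 to 0.870 on haploid and 0.821 to 0.938 on diploid arrays. The part of these markers and of the ratio in the differences below was not tested. In bulk RNA, fewer cells of a type and less RNA per cell cannot be told apart.

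The main comparison asked how haploid EpiSCs differ from diploid EpiSCs in these genes. Of the 12 tested probe sets, 6 fell in haploid cells (limma, line as a random block, adjusted p under 0.05 over 22519 probe sets), and 0 rose. They belong to 5 of the 9 genes: Ocln with both of its probe sets, Cldn7, Cldn6, Tjp3 and Marveld2. Over all tested probe sets 6.63% were called lower and 9.19% higher. Every haploid array lay below every diploid array on the same 6 probe sets, a pattern found for 12.2% of tested probe sets. The median log2 difference of the 12, haploid minus diploid, was -1.21, against 0.02 over all probe sets, and all 12 differences were below 0. Cldn4, Cldn3, F11r and Tjp1 did not pass the test. Since Ocln passed the filter through its diploid signals, its calls are not independent of that filter. With line means as the units, 2 against 2, the calls of both Ocln probe sets and of Cldn7 were kept and those of Cldn6, Tjp3 and Marveld2 lost.

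**Figure D1:**
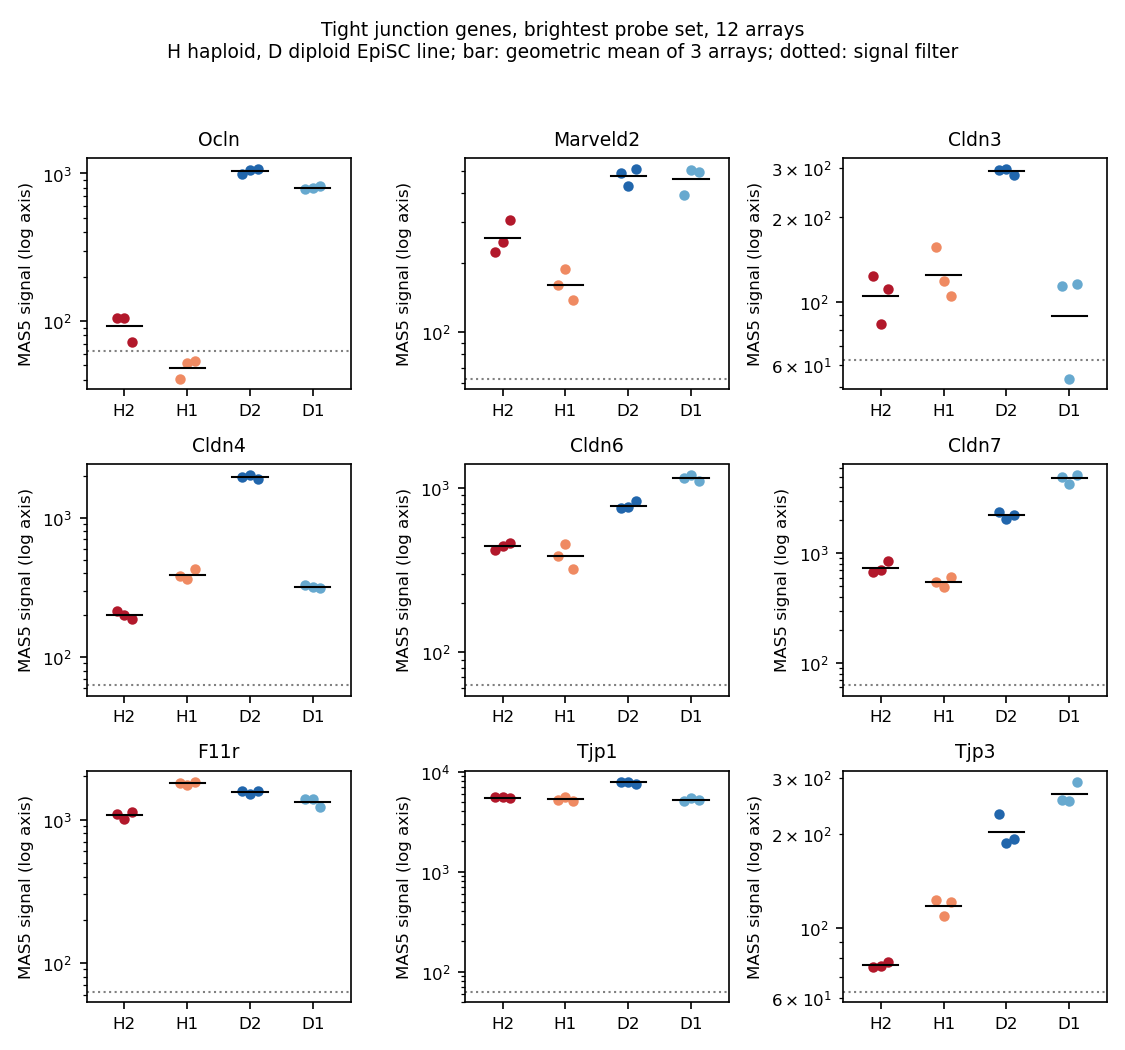
MAS5 signal (log axis) of the brightest probe set of each of the 9 genes on 12 arrays, with haploid EpiSC-2 (H2) and EpiSC-1 (H1) left of diploid EpiSC-2 (D2) and EpiSC-1 (D1). Points are arrays, bars the geometric mean of 3, and the dotted line the signal filter of 62.6, below which the 3 haploid EpiSC-1 arrays lie for Ocln.

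Occludin showed the lowest haploid signals relative to diploid cells. The brighter Ocln probe set (1448873_at, chromosome 13) read 105, 105 and 71.8 in haploid EpiSC-2 and 40.4, 51.9 and 53.1 in haploid EpiSC-1, against 995, 1049.9 and 1080.2 in diploid EpiSC-2 and 786, 791 and 822 in diploid EpiSC-1. The ploidies were far apart on it, and haploid EpiSC-1 was wholly under the filter. Its haploid level was 7.30% of the diploid one, a log2 difference of -3.78 ± 0.37 (SE, 6 arrays from 2 lines of each ploidy, 95% interval -4.55 to -3.00, adjusted p = 4.37e-06, and 0.00944 with line means as units).

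The dimmer Ocln probe set (1440220_at) read 57.4, 25.9 and 32.7 in haploid EpiSC-2 and 4.92, 4.07 and 13.8 in haploid EpiSC-1, against 289.7, 386 and 327 in diploid EpiSC-2 and 305, 376 and 347 in diploid EpiSC-1. All 6 haploid arrays were below the filter and all 6 diploid arrays above it. The log2 difference was -4.45 ± 0.93 (adjusted p = 0.00373, and 0.0356 with lines as the units). A pseudocount of 16 gave -3.33, so the fold is uncertain in size near the background. Against the mean of the diploid lines, haploid EpiSC-2 was at -3.21 and haploid EpiSC-1 at -5.69 on this probe set (log2).

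Marveld2, the gene of tricellulin, is the next protein-coding gene to Ocln on chromosome 13 in the RefSeq table, with 2 entries and 0 protein-coding genes between them. Its signal (1426914_at) was 221, 246 and 305 in haploid EpiSC-2 and 160.5, 187 and 137 in haploid EpiSC-1, against 487, 430.01 and 512 in diploid EpiSC-2 and 394, 506 and 496 in diploid EpiSC-1. All haploid arrays were below all diploid arrays, and the haploid lines did not overlap each other. Marveld2 fell by 1.21 ± 0.34 on the log2 scale, to 43.1% of the diploid level (adjusted p = 0.0226, and 0.111 with line means). Without haploid EpiSC-1 its log2 difference was -0.88 and the call was lost (adjusted p = 0.0977). Tested genes of chromosome 13 had a median of -0.07 in haploid EpiSC-2 and -0.48 in haploid EpiSC-1 against the mean of the diploid lines (391 genes), while Marveld2 was at -0.88 and -1.55 and the brighter Ocln probe set at -3.31 and -4.25.

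**Figure D2:**
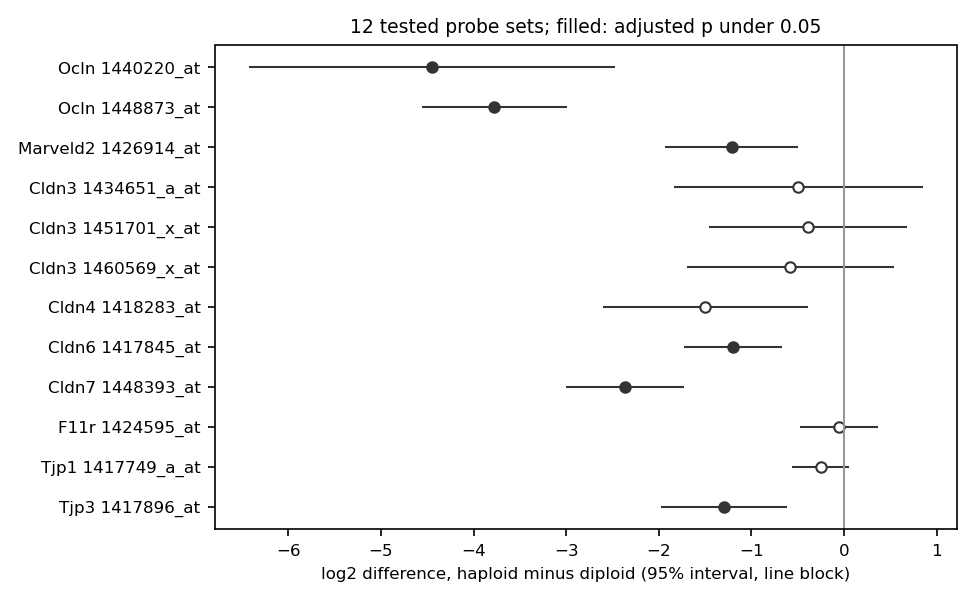
Log2 difference, haploid minus diploid, of the 12 tested probe sets, with 95% intervals from the fit with line as a random block. Filled points passed an adjusted p under 0.05: both Ocln probe sets, Marveld2, Cldn6, Cldn7 and Tjp3, at -4.45 to -1.20.

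Of the 4 claudins, 2 fell. Cldn7, a claudin found along the lateral membrane as well as in the junction, read 679.8, 706 and 848 in haploid EpiSC-2 and 545, 493 and 603 in haploid EpiSC-1, against 2385, 2059.7 and 2245.5 in diploid EpiSC-2 and 5007, 4324 and 5177 in diploid EpiSC-1 (1448393_at, chromosome 11). The 4 lines did not overlap, and both haploid lines were below both diploid lines. Its haploid level was 19.4% of the diploid one (log2 difference -2.37 ± 0.30, 95% interval -3.00 to -1.73, adjusted p = 5.77e-05, and 0.0343 with line means). Tested genes of chromosome 11 had medians of -0.31 in haploid EpiSC-2 and -0.27 in haploid EpiSC-1 against the diploid mean (917 genes), beside -2.14 and -2.59 for Cldn7.

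Cldn6, a claudin of embryonic epithelia and of pluripotent cells, read 421, 443 and 464 in haploid EpiSC-2 and 384, 453 and 322 in haploid EpiSC-1, against 751, 764 and 829.7 in diploid EpiSC-2 and 1143, 1198 and 1101 in diploid EpiSC-1 (1417845_at, chromosome 17). The haploid lines overlapped each other and neither overlapped a diploid line. Cldn6 fell by 1.20 ± 0.25 on the log2 scale, to 43.5% of the diploid level (adjusted p = 0.00356, and 0.0914 with line means).

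Cldn4, a claudin of many epithelia and a receptor of a clostridial enterotoxin, differed mainly in 1 line. It read 215, 201 and 188 in haploid EpiSC-2 and 384, 367 and 428 in haploid EpiSC-1, against 1971, 2033 and 1901 in diploid EpiSC-2 and 331, 316 and 313 in diploid EpiSC-1 (1418283_at, chromosome 5). Diploid EpiSC-2 stood far above the other 3 lines, and diploid EpiSC-1 lay between the haploid lines. The log2 difference between ploidies was -1.50 ± 0.52 (95% interval -2.61 to -0.39) and missed the threshold (adjusted p = 0.0633). It was -2.81 without diploid EpiSC-1 (adjusted p = 3.7e-05) and -0.19 without diploid EpiSC-2 (adjusted p = 0.761). With array medians centred it was -1.62 and passed (adjusted p = 0.0368), as it did with quantile normalization (-1.59, adjusted p = 0.0474). The summed signal of 6 surface epithelium markers was also highest in diploid EpiSC-2, at 9282 to 9469.6. It was 2936 to 3134 in haploid EpiSC-2, 3638 to 3667 in haploid EpiSC-1 and 2867 to 2955 in diploid EpiSC-1. So the sum overlapped between diploid EpiSC-1 and haploid EpiSC-2, which Cldn4 kept apart. Perp and Dsp made up most of it, with means of 4874 and 3452 in diploid EpiSC-2. Of these 6, Krt5, Krt14 and Trp63 did not pass the filter, and Krt14 and Trp63 were below it in every line. The part of such cells was not tested.

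Cldn3, which lies on chromosome 5 as well and encodes a receptor of the same toxin, had 4 probe sets, of which 3 were tested. On the brightest (1434651_a_at) the signals were 124, 84.1 and 111 in haploid EpiSC-2 and 158, 119 and 105 in haploid EpiSC-1, against 295, 298 and 284 in diploid EpiSC-2 and 115, 53.5 and 116 in diploid EpiSC-1. Diploid EpiSC-2 was again above the other 3 lines, which overlapped among themselves. The log2 differences between ploidies on the 3 tested probe sets were -0.49, -0.39 and -0.58, with adjusted p values of 0.694, 0.694 and 0.544. Without diploid EpiSC-1 the first was -1.35 and passed (adjusted p = 0.0283). The suffixes of these probe sets mark probes that can match several transcripts of a gene or, for 1451701_x_at and 1460569_x_at, other sequences. The untested probe set, 1426332_a_at, ranged from 15.6 to 82.2 over the haploid arrays and from 22.6 to 81.6 over the diploid arrays.

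**Figure D3:**
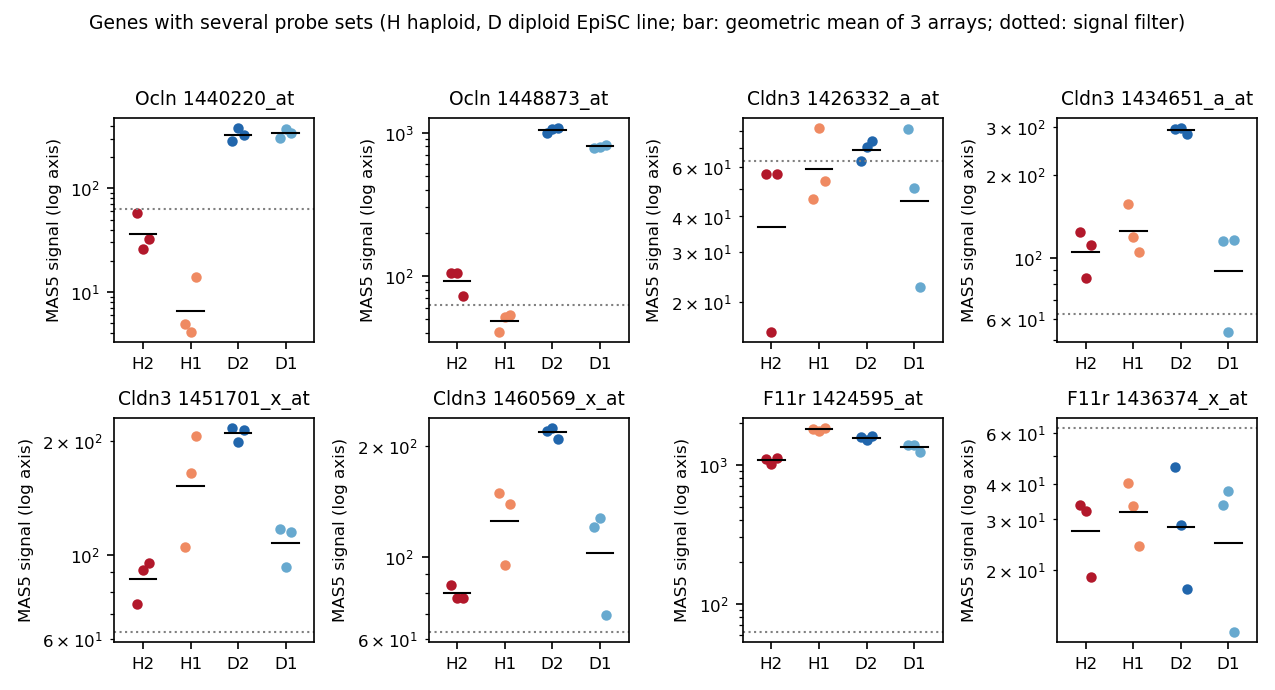
MAS5 signal (log axis) of all probe sets of Ocln, Cldn3 and F11r by line, with haploid lines (H2, H1) left of diploid lines (D2, D1), bars at the geometric mean of 3 arrays and the filter of 62.6 dotted. Both Ocln probe sets part the ploidies, the 3 tested Cldn3 probe sets are highest in D2, and 1436374_x_at of F11r lies under the filter on all 12 arrays.

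Junctional adhesion molecule A showed no difference between ploidies that passed the test. F11r (1424595_at, chromosome 1) read 1098, 1014 and 1126 in haploid EpiSC-2 and 1794, 1747 and 1845 in haploid EpiSC-1, against 1580.5, 1513 and 1596 in diploid EpiSC-2 and 1392, 1395 and 1229.7 in diploid EpiSC-1. The haploid lines lay on opposite sides of both diploid lines. The log2 difference was -0.05 ± 0.20 (95% interval -0.47 to 0.37, adjusted p = 0.907), while the lines taken alone were at -0.42 for haploid EpiSC-2 and 0.31 for haploid EpiSC-1.

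Among the scaffold genes, Tjp3 passed the test between the ploidies and Tjp1 did not, and they were not tested against each other. Tjp1, which encodes ZO-1, the scaffold shared by tight and adherens junctions, read 5562, 5563 and 5377 in haploid EpiSC-2 and 5214, 5512 and 5066 in haploid EpiSC-1, against 7904, 7947 and 7557.5 in diploid EpiSC-2 and 5064, 5462 and 5235 in diploid EpiSC-1 (1417749_a_at, chromosome 7). Diploid EpiSC-2 was higher than the other 3 lines, which overlapped. The log2 difference between ploidies was -0.25 ± 0.15 (95% interval -0.56 to 0.06, adjusted p = 0.288). It was -0.54 without diploid EpiSC-1 (adjusted p = 0.0028) and 0.03 without diploid EpiSC-2 (adjusted p = 0.876).

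Tjp3, which encodes ZO-3, a scaffold largely limited to epithelial tight junctions, read 75.3, 75.9 and 78.1 in haploid EpiSC-2 and 123, 109 and 121 in haploid EpiSC-1, against 231, 186 and 192 in diploid EpiSC-2 and 256, 254 and 293 in diploid EpiSC-1 (1417896_at, chromosome 10). The 4 lines did not overlap and the haploid lines were the lower pair, with haploid EpiSC-2 close above the filter. Tjp3 fell by 1.29 ± 0.32 on the log2 scale, to 40.8% of the diploid level (95% interval -1.98 to -0.61, adjusted p = 0.0117, and 0.118 with line means).

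The second comparison set haploid EpiSC-2 against haploid EpiSC-1, in 1 fit of 4 line means that shares the spread between replicates. Of the 12 tested probe sets 4 were higher in haploid EpiSC-2, those of Ocln, Marveld2 and Cldn7, and 5 were lower, those of Cldn4, F11r, Tjp3 and 2 of Cldn3. Over all tested probe sets 22.0% were called higher and 25.7% lower. So the genes that fell in haploid cells did not move as 1 block between the haploid lines: Ocln, Marveld2 and Cldn7 were lowest in haploid EpiSC-1, and Tjp3 in haploid EpiSC-2. Ocln was higher in haploid EpiSC-2 by 0.94 ± 0.15 on the brighter probe set (log2, adjusted p = 0.000125), with haploid EpiSC-1 below the filter. The dimmer Ocln probe set is 1 of the 4 counted, but its 6 haploid arrays all lay below the filter and it was tested through its diploid signals, so no fold is given for it here. Marveld2 was higher by 0.67 ± 0.15 (adjusted p = 0.00169) and Cldn7 by 0.44 ± 0.10 (adjusted p = 0.00159).

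Lower in haploid EpiSC-2 were Cldn4, at -0.96 ± 0.08 (adjusted p = 3.18e-07), F11r, at -0.74 ± 0.06 (adjusted p = 2.22e-07), and Tjp3, at -0.62 ± 0.14 (adjusted p = 0.00213). The adjusted p of F11r was 0.118 with the mean of its probe sets, which brings in the dim one. Cldn3 was lower on 1451701_x_at, at -0.82 (adjusted p = 0.00586), and on 1460569_x_at, at -0.66 (adjusted p = 0.0286), a call kept in 10 of 17 alternatives and lost without haploid EpiSC-1 replicate 1 or 3 or haploid EpiSC-2 replicate 2 or 3. Its brightest probe set was at -0.25 (adjusted p = 0.46). Cldn6 was at 0.21 (adjusted p = 0.108), and it passed with array medians centred (0.37, adjusted p = 0.0109), with quantile normalization (0.31, adjusted p = 0.0223) and without haploid EpiSC-1 replicate 2 (0.33, adjusted p = 0.0099). Tjp1 was at 0.06 (adjusted p = 0.249), and at 0.22 with array medians centred (adjusted p = 0.00298).

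**Figure D4:**
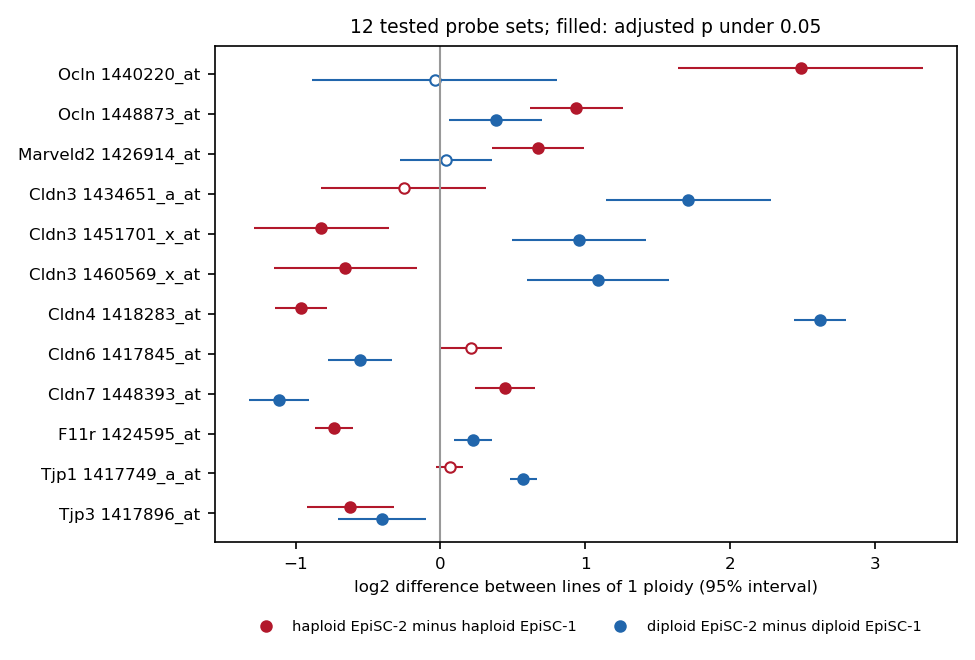
Log2 difference between the lines of each ploidy (EpiSC-2 minus EpiSC-1) for the 12 tested probe sets with 95% intervals, haploid lines in red and diploid lines in blue; filled points passed an adjusted p under 0.05. Cldn4 lies at -0.96 between the haploid lines and at 2.62 between the diploid lines.

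The third comparison set diploid EpiSC-2 against diploid EpiSC-1. Here 7 of the 12 probe sets were higher in diploid EpiSC-2, those of Cldn4, Cldn3 (3 of 3), Tjp1, F11r and the brighter one of Ocln, and 3 were lower, those of Cldn7, Cldn6 and Tjp3. Over all tested probe sets 22.3% were called higher and 29.4% lower. The claudins thus split: Cldn4 was 6.15-fold higher in diploid EpiSC-2 (log2 difference 2.62 ± 0.08, adjusted p = 4.6e-12), whereas Cldn7 was at 46.2% of its level in diploid EpiSC-1 (-1.12 ± 0.10, adjusted p = 2.58e-07). Cldn3 was higher by 1.71, 0.96 and 1.09 on its 3 tested probe sets (adjusted p = 8.45e-05, 0.00188 and 0.00109), and Cldn6 was at -0.55 ± 0.10 (adjusted p = 0.000374).

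Tjp1 was higher in diploid EpiSC-2 by 0.57 ± 0.04 (log2, adjusted p = 6.92e-08) and F11r by 0.23 ± 0.06 (adjusted p = 0.00665, and 0.518 with the mean of its probe sets). Tjp3 was at -0.40 (adjusted p = 0.0275), a call kept in 14 of 19 alternatives and lost without diploid EpiSC-1 replicate 3 or diploid EpiSC-2 replicate 2 or 3. Ocln was at 0.38 on the brighter probe set (adjusted p = 0.0468), a call kept in 9 of 19 alternatives and lost when any 1 of the 6 diploid arrays was left out, and at -0.04 on the dimmer one (adjusted p = 0.942). Marveld2 was at 0.04 (95% interval -0.28 to 0.36, adjusted p = 0.849). The haploid and the diploid lines are separate pairs whose numbers do not match a line of one ploidy to a line of the other, so the pairs of differences were not tested against each other.

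Beyond the 9 members, 55 other junction genes were listed, of which 50 had a probe set of their own and 31 passed the filter on their brightest probe set. Between the ploidies 3 of the 31 fell and 2 rose, with a median log2 difference of -0.08, against 0.00 over 11105 genes, of which 8.71% were called lower and 11.1% higher. The 3 that fell were Crb3, Marveld3 and Llgl2. Crb3, a crumbs protein of the apical membrane, had mean signals of 210.4 in haploid EpiSC-2 and 126 in haploid EpiSC-1, against 891 in diploid EpiSC-2 and 921 in diploid EpiSC-1 (log2 difference -2.48 ± 0.26, adjusted p = 8.46e-06). Marveld3, which encodes a MARVEL protein of tight junctions, had a log2 difference of -1.66 ± 0.36 (adjusted p = 0.00501), while the MARVEL gene Marveld1 was at -0.05 (adjusted p = 0.946). Llgl2, a basolateral polarity gene, was at -0.89 ± 0.17 (adjusted p = 0.00207, and 0.138 with lines as the units).

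Jam2 and Ildr2 rose. Jam2, a junctional adhesion molecule also known from endothelium, had mean signals of 148 in haploid EpiSC-2 and 227 in haploid EpiSC-1, against 22.1 in diploid EpiSC-2 and 28.3 in diploid EpiSC-1, so that it passed the filter through its haploid signals (log2 difference 2.94 ± 0.69, adjusted p = 0.00784). Ildr2, of the angulin family that recruits tricellulin, was at 1.87 ± 0.61 (adjusted p = 0.0455), a call kept in 11 of 24 alternatives and lost with line means (adjusted p = 0.0518). Its mean signals were 259 in haploid EpiSC-2 and 157 in haploid EpiSC-1, against 57.6 in diploid EpiSC-2 and 54.5 in diploid EpiSC-1, so it too passed the filter through its haploid signals. Of the 13 tested genes of the cytoplasmic plaque, 0 passed the test in limma, with 4 lower and 3 higher at an unadjusted p under 0.05. The share of all genes at that unadjusted threshold is not given here, so these 2 counts cannot be set against it. The plaque gene Cgn, which encodes cingulin, was at -1.06 (adjusted p = 0.0821), with mean signals of 257 in haploid EpiSC-2 and 362 in haploid EpiSC-1, against 1012 in diploid EpiSC-2 and 392 in diploid EpiSC-1, chosen after its values were seen because diploid EpiSC-2 stands above the other 3 lines as it does for Cldn4. Of 17 further claudins on the array only Cldn12 and the claudin-like Cldnd1 passed the filter, at -0.14 (adjusted p = 0.637) and -0.09 (adjusted p = 0.901).

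**Figure D5:**
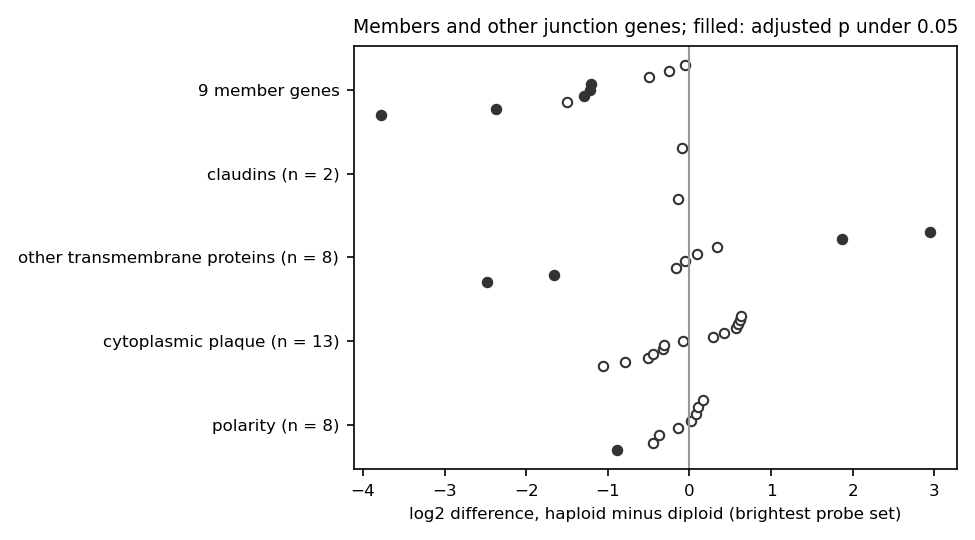
Log2 difference, haploid minus diploid, of the brightest probe set of the 9 member genes and of 31 other tested junction genes by role; filled points passed an adjusted p under 0.05. The members extend from -3.78 to -0.05, while the 13 plaque genes hold 0 filled points.

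Regulators of the epithelial state were counted from a list of 13 genes, 10 of them tested, with Snai1, Ovol1 and Ovol2 below the filter. Ovol2 missed the filter through its haploid signals and was not tested. Its means were 58.1 in haploid EpiSC-2 and 18.8 in haploid EpiSC-1, against 108.4 in diploid EpiSC-2 and 114.7 in diploid EpiSC-1. Grhl3, Esrp2, Klf5 and Elf3 did not pass the test between the ploidies, with log2 differences of 0.21, 0.25, 0.29 and -0.20. Over 11105 genes, 11.1% were called higher and 8.71% lower in haploid cells. In haploid cells 4 rose, the repressors of epithelial genes Snai2 (4.75 ± 0.29, adjusted p = 3.13e-08), Twist1 (4.21 ± 0.67, adjusted p = 0.000444), Zeb2 (2.79 ± 0.46, adjusted p = 0.000561) and Zeb1 (2.17 ± 0.28, adjusted p = 5.77e-05). The 2 that fell were Grhl2, a grainyhead activator of epithelial genes (-1.74 ± 0.26, adjusted p = 0.000284), and Esrp1, an epithelial splicing factor (-1.34 ± 0.25, adjusted p = 0.0015, and 0.136 with lines as the units). Twist1 and Zeb2 passed the filter through their haploid signals, since their means were below it in both diploid lines, as was that of Snai2 in diploid EpiSC-1, so their folds are uncertain in size. Mean signals of Grhl2 were 168 in haploid EpiSC-2 and 138 in haploid EpiSC-1, against 470.3 in diploid EpiSC-2 and 543 in diploid EpiSC-1. Those of Zeb1 were 986 in haploid EpiSC-2 and 1769 in haploid EpiSC-1, against 353 in diploid EpiSC-2 and 247 in diploid EpiSC-1. These lists were chosen with results of these data known, and the part of the regulators in the junction genes was not tested.

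Over the 12 arrays, which come from 4 lines, the pattern of Ocln was matched by some members and not by others. The Pearson correlation of log2 signal with the brighter Ocln probe set was 0.94 for Marveld2, 0.91 for Cldn7, 0.91 for Cldn6 and 0.83 for Tjp3. It was 0.60 for Cldn4, 0.59 for Tjp1, 0.36 for the brightest Cldn3 probe set and -0.05 for F11r. The 5 tested genes with the highest correlation were Nudcd2 and Mrps14 (0.996 each), Nr6a1 (0.995), Polr1c (0.994) and Rpgrip1 (0.993), none of them in the junction lists. The order of the lines was shared in part. The brighter Ocln probe set and Marveld2 were highest in diploid EpiSC-2, and Cldn7, Cldn6 and Tjp3 in diploid EpiSC-1. The dimmer Ocln probe set had the line order of Cldn7 and Cldn6. On Marveld2 and on the dimmer Ocln probe set the arrays of the diploid lines overlapped. The arrays of a line share their source, so these correlations describe a pattern over 4 lines and carry no test.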

How the data were processed

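The authors deposited linear MAS5 intensities, as the submitters' processing notes name the tool; its version and the genome build are not given in the sources used here. After dropping 64 controls, 45037 probe sets remained. The members and lists were chosen with earlier results of these data known. Signals were used as log2 values with no further normalization, since the trimmed mean (2% off each end) was 500.0 on every array. Probe sets above the median of the probe-set means were tested, 22519 in all. Detection calls were not used here, which leaves the size of folds near the background uncertain. Precision is limited by the number of arrays.

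The ploidies were set against each other in limma 3.58.1 under R 4.3.3 (lmFit, eBayes with trend), with the 4 lines as a random block (duplicateCorrelation, statmod 1.5.0, correlation 0.755). Lines of a ploidy were compared in 1 fit of 4 line means over all 12 arrays. Tests were two-sided, and calls had a Benjamini-Hochberg adjusted p under 0.05 over all tested probe sets. With 2 lines of each ploidy, p values from the line block are uncertain, so those with line means as the units are given beside the members' calls and wherever a named gene lost its call with them. Every member probe set was named, with the called genes among the 3 highest and 3 lowest of the other junction genes and the 5 genes most correlated with Ocln. Lists were read on the brightest probe set of each gene, with values and p values of the fit of probe sets. The alternatives were centring on array medians, quantile normalization, a pseudocount of 16, no filter, a filter at the 0.75 quantile, the brightest or the mean of a gene's probe sets, replicate number as a block, leaving out each array, and, between ploidies, line means, no line block and leaving out each line. Promoters are RefSeq windows around annotated starts.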

Additional observations from a re-analysis of the deposited data

How the results depend on the processing

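Alternatives were run for the counts of calls, the member probe sets, the regulators called and the other junction genes called between the ploidies. They are not given for Cgn, Cldn12, Cldnd1, Marveld1 and the tested regulators that were not called. They were not run for correlations, single cell type markers, marker sums, chromosome medians or promoter matches. Of 1004 alternative values of single probe sets or genes, 938 kept direction and side of the threshold, 43 lost the call, 11 gained it and 12 changed sign. The count of members lower in haploid cells (6) was 2 with the stricter filter, which left 5 probe sets, and 3 with line means, and lay at 5 to 6 when single arrays were left out, with 0 higher throughout. The count of 5 was seen where Ocln 1440220_at dropped below the filter. Between the haploid lines the lower count (5) was 2 with the stricter filter and 3 with the brightest or the mean of a gene's probe sets, and 4 to 5 without single arrays; the higher count (4) was 1 with the stricter filter and 3 to 5 without single arrays. Between the diploid lines the higher count (7) was 3 with the stricter filter and 3 with the mean of probe sets, and 6 to 7 without single arrays, with 2 to 3 lower. The other junction genes lower in haploid cells (3) were 6 with array medians centred, 7 without a filter, 1 with the stricter one, 10 without the line block, 5 without haploid EpiSC-2, 7 without diploid EpiSC-1 and 5 without diploid EpiSC-2, and 3 to 4 without single arrays. Those higher (2) were 1 with centring, quantile normalization, the brightest probe set or line means, 4 without a filter, 0 with the stricter one or the mean of probe sets, 6 without the line block, and 0 to 2 without single arrays. Regulators lower (2) were 1 with the stricter filter, the mean of probe sets or line means, and those higher (4) were 1 with the stricter filter. The causes were not tested.

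Sign changes, none of them called, were Ocln 1440220_at between the diploid lines (0.068 with quantile normalization, and -0.12 to 0.057 without single arrays), Marveld2 between the diploid lines (-0.077 to 0.11 without single arrays), Tjp1 between the haploid lines (-0.035 with quantile normalization) and, between ploidies, Tjp1 (0.035 without diploid EpiSC-2), F11r (0.052 with the mean of probe sets, 0.31 without haploid EpiSC-2, 0.058 without diploid EpiSC-2), Cldn3 1434651_a_at (0.36 without diploid EpiSC-2) and Cldn3 1451701_x_at (0.021 without haploid EpiSC-2, 0.089 without diploid EpiSC-2). Same-numbered replicates did not deviate together (18 pairs, correlations of -0.03 to 0.08), so the numbers do not pair the samples. With the replicate block 6 members were lower and 0 higher between ploidies, 5 and 4 between the haploid lines, and 3 and 6 between the diploid lines, where the brighter Ocln probe set was lost (adjusted p = 0.0579). Over all probe sets, 1492 were lower and 2070 higher in haploid cells. Centring put their median at -0.10, against 0.02 as deposited, and gave 1901 lower and 1506 higher, line means gave 237 and 455, and no line block gave 4612 and 5419. Between the haploid lines centring gave 3654 lower and 7548 higher, against 5795 and 4961, with a median of 0.12, against -0.04.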
